A study of Zea mays with 10 samples.

Results

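The comparison described here set the F1 hybrid of maize inbreds B73 and H99 against its B73 parent in the immature ear, the young female inflorescence on which the kernels later form. It was measured on 5 of the 10 cDNA arrays of the series, namely those that carried the F1 in one channel and B73 in the other. The other 5 arrays carried the same F1 RNA beside H99 and served here mainly to estimate the spread. They also entered the filter of clones and a closing comparison of array spread and mean ratios. On 3 of the B73 arrays, called forward, the F1 was labelled with Cy3 and B73 with Cy5, and on 2 reversed arrays the dyes were swapped. Every genotype was a bulk of 10 field-grown plants at stage V15, frozen after silks and ear tips were removed. Total RNA of several extractions was pooled before poly(A) RNA was purified, and each array received its own labelling of that pool. The 5 arrays are thus repeated measurements of 1 pool of F1 and 1 pool of B73, and a p-value measures the spread of labelling and hybridisation but not that between plants.

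An F1 hybrid carries 1 genome copy from each parent, and its transcript level of a gene may lie at the mean of the parents, near one of them or outside their range. Heterosis, the superior growth of many hybrids, has often been studied through such levels. The immature ear holds inflorescence and floral meristems, in which KNOX homeobox genes keep cells undifferentiated and MADS-box genes specify floral organs, together with rapidly dividing and expanding cells. A cDNA array reports for each spotted clone a ratio of the 2 labelled samples. It gives no level in either sample, so the labelled tissue could not be checked through the levels of its marker genes. Related genes of a family can also bind to the same clone.

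The value reported is L1, the mean deposited log2 ratio over the 5 arrays. The design text defines L1 as F1 against B73, so that a positive value would be a higher level in the hybrid, but it also calls the hybrid the control channel, and the deposited columns do not say which genotype was the numerator. Signs are therefore given as positive or negative, without a direction. A second point is unsettled too. A ratio of dye over dye changes sign when dyes are swapped and a ratio of genotype over genotype does not, and the sources do not say whether the reversed arrays were turned before deposit. The arrays were used as deposited, and the values of each orientation are given beside the results.

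Each of 16200 spots was read as 1 of 3 neighbouring spots of a clone, which gave 5400 clones. A clone was tested when it had at least 3 values per inbred and at least 1 in each orientation, and 5357 clones passed. A gene name was known for 811 clones, of which 807 were tested, and these stood for 213 genes. The B73 arrays lacked between 1.07% and 2.03% of the spots, and their medians lay between -0.001 and 0. The median SD of the 3 spots of a clone was 0.041 to 0.073 on the log2 scale.

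Of 794 named clones with a value on all 5 arrays 328 (41.3%) had the same sign throughout, against 37.7% of all such clones. By limma with adjusted p under 0.05, 65 of 213 named genes (30.5%) were called for L1, 40 with a positive mean (18.8%) and 25 with a negative one (11.7%). Over the whole table of 4763 gene means and unnamed clones, 40.4% were called, 20.3% positive and 20.1% negative. Positive calls included the MADS-box gene ZAG3 and the kinase gene Pti1d. Negative calls included the aldolase gene ald1, the aquaporin PIP2-1 and the sugar phosphate translocator gene gpt. With the reversed B73 arrays turned, limma called 0 named genes, with 35 at an unadjusted p under 0.05 and a lowest adjusted p of 0.17. The order of the means depends on this choice too. Turned, ZAG3 stood at 0.05, Pti1d at 0.15, rop5 at 0.12, PK at 0.17, gpt at 0.08 and LOC606466 at -0.003, below the 0.29 of GOS2 and the 0.28 of PP2C, and none of these was called. With the reversed arrays as deposited, limma called 36 of the 213 named genes without array 1 and 33 without array 3. As in any bulk sample, fewer cells of a type and less RNA per cell cannot be told apart.

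Among the regulators of the inflorescence, 5 of 15 genes were called and all 5 were positive. Positive calls made up 18.8% of all named genes and 20.3% of the whole table. The share called in the list was near the 30.5% called among all named genes and below the 40.4% of the whole table. The median of the 15 gene means was 0.07, against 0.02 for all named genes. ZAG3, a MADS-box gene of the AGL6 group that acts in floral meristems, gave 0.31, 0.30 and 0.30 on the forward arrays and 0.36 and 0.31 on the reversed ones. The 5 deposited values of its single clone lay close together, averaging 0.31 ± 0.024 (SD over 5 arrays; limma adjusted p = 0.000419). On the linear scale this is a ratio of 1.24. With the reversed arrays turned its mean was 0.05 (limma adjusted p = 0.785).

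Other MADS-box genes were positive as well. All 3 clones of m4 lay between 0.23 and 0.29. The mean over these clones was 0.25, 0.21 and 0.40 on the forward arrays and 0.38 and 0.06 on the reversed ones (mean 0.26 ± 0.14 SD, n = 5; limma adjusted p = 0.00392). The single clone of m28 varied more, at 0.11, 0.44 and 0.57 on the forward arrays and 0.23 and 0.03 on the reversed ones (limma adjusted p = 0.0112). Its call was lost when array 2 or array 3 was left out. Outside the genes chosen by size or p, the list also held calls for zmm31, with 2 positive clones and a mean of 0.25 (limma adjusted p = 0.0142), and for rld2, a homeodomain leucine zipper gene of leaf polarity, at 0.24 (limma adjusted p = 0.006).

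The remaining 10 genes of this list were not called. The KNOX gene kn1, which maintains the shoot and inflorescence meristem, had 11 clones and a gene average of -0.03 ± 0.037 (SD, n = 5; limma adjusted p = 0.595). Its clones ran from -0.38 to 0.28, with 5 positive and 6 negative. ZAG1, an AGAMOUS relative, averaged 0.33 on the forward arrays and -0.03 on the reversed ones, and this difference was called (limma adjusted p = 0.0401). The 3 genes placed on the leaf marker list gave no call. Of these the light-harvesting gene Lhcb5-2 had the lowest p, at a mean of 0.13 (limma adjusted p = 0.0541). The planned definition of that list also covers the symbol me2, which was placed in no list. The me2 clone was called positive at a mean of 0.36 (limma adjusted p = 0.00727), with 0.59 on the forward arrays and 0.00 on the reversed ones. The only male-flower marker among the named genes, MFS18, was negative in both clones, with -0.58, -0.37 and -0.66 on the forward arrays and -0.12 and -0.11 on the reversed ones (limma adjusted p = 0.00199). All forward values of MFS18 were lower than both reversed ones, and the difference between orientations was called (limma adjusted p = 0.0197).

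**Figure D1:**
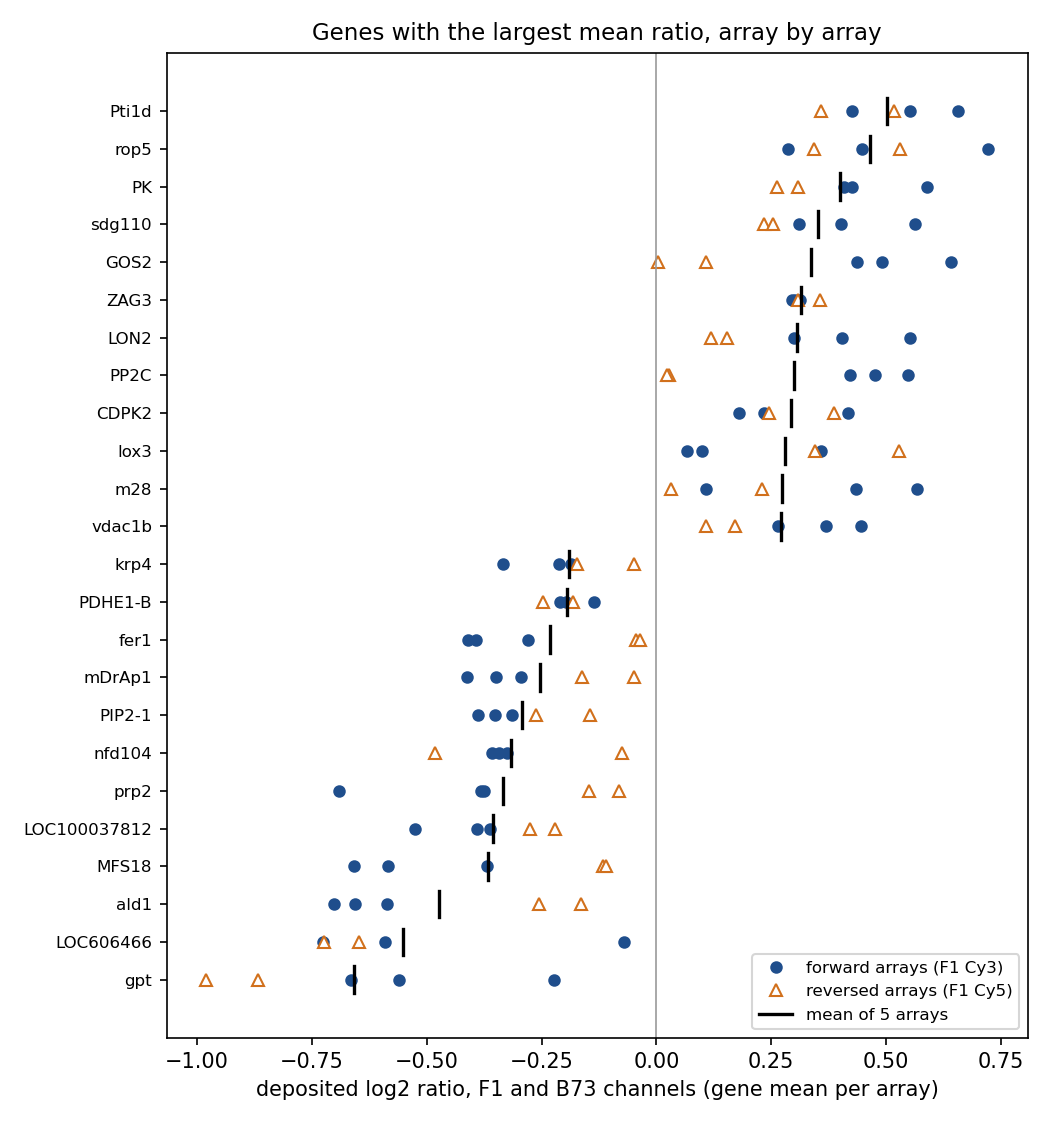
Gene means on each of the 5 arrays (x axis, deposited log2 ratio of the F1 and B73 channels) for the 12 genes per sign with the largest called L1 and the same sign on all arrays. Filled circles are forward arrays, open triangles reversed arrays and black bars the mean of 5. ZAG3 values nearly coincide, while the reversed values of PP2C, GOS2, fer1 and MFS18 lie near 0.

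Of 13 signalling genes, 5 were called positive and 2 negative, against 20.3% positive and 20.1% negative calls over the whole table. Pti1d, related to a serine/threonine kinase known from tomato disease resistance, gave 0.43, 0.55 and 0.66 on the forward arrays and 0.52 and 0.36 on the reversed ones. Its average of 0.50 ± 0.12 (SD, n = 5; limma adjusted p = 0.00315) is a ratio of 1.42. With the arrays scaled to the same spread the L1 of Pti1d was 0.41 and was no longer called (limma adjusted p = 0.055). With the reversed arrays turned it was 0.15 (limma adjusted p = 0.633). The genes rop3, rop4 and rop5, with 1 clone each, had unequal means, and the differences between them were not tested. The rop5 clone reached 0.45, 0.29 and 0.72 on the forward arrays and 0.53 and 0.34 on the reversed ones (mean 0.47 ± 0.17 SD, n = 5; limma adjusted p = 0.00101). The rop4 clone averaged 0.25 ± 0.10 (SD, n = 5; limma adjusted p = 0.00356). The rop3 clone had a mean of 0.05 and was not called (limma adjusted p = 0.49).

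The kinase gene listed as PK was positive on every array, from 0.26 to 0.59, averaging 0.40 ± 0.13 (SD, n = 5; limma adjusted p = 0.000175). PP2C, a protein phosphatase, split by dye orientation. It gave 0.42, 0.48 and 0.55 on the forward arrays and 0.03 and 0.02 on the reversed ones, and the difference was called (limma adjusted p = 0.0119). The negative calls were PP1, a protein phosphatase catalytic subunit, with all 4 clones between -0.26 and -0.06 (gene mean -0.15 ± 0.085 SD, n = 5; limma adjusted p = 0.0317), and S6K, a ribosomal protein S6 kinase. S6K averaged -0.50 on the forward arrays and 0.11 on the reversed ones as deposited, a called difference (limma adjusted p = 0.00667). Among calcium signalling genes, the calcium-dependent kinase CDPK2 was the only 1 of 4 called, against 30.5% of all named genes and 40.4% of the whole table. It gave 0.18, 0.23 and 0.42 on the forward arrays and 0.39 and 0.24 on the reversed ones (limma adjusted p = 0.00636). Calmodulin CaM1 had 9 clones and a gene mean of 0.08 (limma adjusted p = 0.259).

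Of 18 chromatin genes 4 were called positive and 2 negative, a share near the 30.5% called among all named genes and below the 40.4% of the whole table. The SET-domain gene sdg110, of a family of histone methyltransferases, was positive on every array, with 0.40, 0.31 and 0.56 on the forward arrays and 0.23 and 0.25 on the reversed ones (mean 0.35 ± 0.13 SD, n = 5; limma adjusted p = 0.00162). The HMG-type gene nfd104 was negative on every array, at -0.33, -0.36 and -0.34 on the forward arrays and -0.48 and -0.07 on the reversed ones (mean -0.32 ± 0.15 SD, n = 5; limma adjusted p = 0.00287). Its relative nfd101, with 19 clones, had 13 positive and 6 negative clones and a gene average of 0.12 ± 0.093 that was not called (SD, n = 5; limma adjusted p = 0.0933). All 3 clones of mbd106, a methyl-CpG-binding domain gene, were negative, with a forward mean of -0.33 and a reversed mean of -0.02. Linker and core histone genes gave no call among 4 genes with 65 clones. Their gene means lay between -0.03 and 0.04, although 11 of the clones were called positive and 12 negative, against 21.0% and 20.7% of all clones. Growth-regulating factors and their partners gave 3 positive calls and 1 negative among 8 genes, all of modest size. Positive and negative calls made up 18.8% and 11.7% of all named genes, and 20.3% and 20.1% of the whole table. GRF14 averaged 0.15 and GRF12 0.17 (limma adjusted p = 0.0383 and 0.0203).

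Carbon metabolism and water channels held several of the negative genes. The aldolase gene ald1 of glycolysis gave -0.66, -0.70 and -0.59 on the forward arrays and -0.26 and -0.16 on the reversed ones, averaging -0.47 ± 0.25 (SD, n = 5; limma adjusted p = 0.000357). Negative on all arrays, it was nevertheless lower on the forward ones, and that difference was called (limma adjusted p = 0.0144). The glyceraldehyde-3-phosphate dehydrogenase gene GPC1 had 10 clones and was the only gene with 10 or more clones that was called. Its gene mean was -0.10, -0.13 and -0.25 on the forward arrays and -0.17 and -0.17 on the reversed ones (limma adjusted p = 0.0345), but the call was lost when any 1 array was left out. The related gpc2 and gpc3 each had a mean of -0.12 and were not called (limma adjusted p = 0.0758 and 0.058). Of 8 glycolysis and fermentation genes, 2 were thus called, both negative. Calls of either sign made up 30.5% of all named genes and 40.4% of the whole table, and negative calls 11.7% and 20.1%. The median gene mean of the list was -0.12, while enolases eno1 and eno2 and the alcohol dehydrogenase adh1 lay between 0.02 and 0.06.

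The glucose 6-phosphate/phosphate translocator gene gpt had the lowest mean of all named genes as deposited, but 0.08 with the reversed arrays turned (limma adjusted p = 0.84). Its clone gave -0.56, -0.66 and -0.22 on the forward arrays and -0.87 and -0.98 on the reversed ones, averaging -0.66 ± 0.29 (SD, n = 5; limma adjusted p = 0.000175) with a ratio of 1.58 in size. Here the reversed arrays were lower than all forward ones, the opposite order from ald1 and MFS18, but the difference was not called (limma adjusted p = 0.0669). The voltage-dependent anion channel gene vdac1b of the mitochondrial outer membrane was positive on every array, from 0.11 to 0.44 (mean 0.27 ± 0.14 SD, n = 5; limma adjusted p = 0.00476). Genes of sucrose and starch metabolism gave no call among 5, against 30.5% of all named genes and 40.4% of the whole table. Of their 21 clones 5 were called positive and 7 negative, against 21.0% and 20.7% of all clones. Sucrose synthase sus1 averaged -0.07 over 11 clones (limma adjusted p = 0.277).

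Aquaporins, the channels that move water and small solutes across membranes, gave 3 negative calls and 1 positive among 6 genes. Negative and positive calls made up 11.7% and 18.8% of all named genes, and 20.1% and 20.3% of the whole table. All 6 clones of PIP2-1, a channel of the plasma membrane, were negative, from -0.54 to -0.08. Its gene mean was -0.35, -0.32 and -0.39 on the forward arrays and -0.26 and -0.14 on the reversed ones (mean -0.29 ± 0.095 SD, n = 5; limma adjusted p = 0.000844). Its relative PIP1-3, with 7 clones, stood at 0.03 and was not called (limma adjusted p = 0.707). NIP3-1, an intrinsic protein of the group that carries boron, was positive on every array, from 0.10 to 0.21 (mean 0.16 ± 0.043 SD, n = 5; limma adjusted p = 0.0266). Subtracting the print position pattern described below turned its mean to -0.03.

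Mitochondrial genes were called once in each direction among 7 genes, against 30.5% of all named genes called and 40.4% of the whole table. PDHE1-B, the beta subunit of pyruvate dehydrogenase E1, was negative in all 3 clones and nearly equal on all arrays, at -0.20, -0.21 and -0.14 on the forward ones and -0.18 and -0.25 on the reversed ones (mean -0.19 ± 0.041 SD, n = 5; limma adjusted p = 0.0105). LON2, a Lon-type protease, was positive, from 0.12 to 0.55 (limma adjusted p = 0.00809). The adenine nucleotide translocator ANT1 had 12 clones, 6 of either sign, and a gene mean of 0.00 (limma adjusted p = 0.988).

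The protein synthesis genes gave 3 positive calls among 17, against 18.8% positive calls among all named genes and 20.3% over the whole table. GOS2, a homologue of initiation factor 1, averaged 0.52 on the forward arrays and 0.06 on the reversed ones, a called difference (limma adjusted p = 0.0236). The cap-binding factor eIFiso-4E had a mean of 0.27 (limma adjusted p = 0.00732) and the acidic ribosomal protein rpp3 a mean of 0.36 (limma adjusted p = 0.00574), with rpp3 ranging from -0.05 to 0.66 over the arrays. The elongation factor genes with many clones, elfa2, elfa3 and EF1A, had means between -0.02 and 0.02. Chaperone genes gave 1 call among 9, against 30.5% of all named genes called and 40.4% of the whole table. It was for hsp18f, a small heat shock protein, with a mean of -0.22 (limma adjusted p = 0.0288). The hsp18f gene averaged -0.39 on the forward arrays and 0.03 on the reversed ones. Tubulin and actin genes gave 1 call among 10, against the same 30.5% and 40.4%. The call was for the beta-tubulin tub3 at -0.27 (limma adjusted p = 0.012), while the alpha-tubulins TUA1 and tua4, with 30 and 57 clones, had means of 0.02 and 0.01.

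In the other lists calls were compared with 30.5% of all named genes called and 40.4% of the whole table. For positive calls alone these shares were 18.8% and 20.3%. The redox list had 1 call per sign among 8 genes, the cell cycle list 1 per sign among 6, and the inositol and lipid list 2 positive among 5. Ferritin fer1, which stores iron, was negative on every array, at -0.28, -0.41 and -0.39 on the forward arrays and -0.04 and -0.03 on the reversed ones (limma adjusted p = 0.0107), and catalase cat1 was positive, from 0.07 to 0.36 (limma adjusted p = 0.0357). In the cell cycle list the kinase gene cdc2 was positive in both clones (mean 0.18; limma adjusted p = 0.014), and the cyclin-dependent kinase inhibitor gene krp4 was negative (mean -0.19; limma adjusted p = 0.0315). The lipoxygenase gene lox3 was positive, but its forward values of 0.07, 0.10 and 0.36 lay mostly below its reversed values of 0.53 and 0.34 (limma adjusted p = 0.0434). PIS, for phosphatidylinositol synthase, averaged 0.17 (limma adjusted p = 0.0233). The cell wall gene RGP, the lignin gene CAD2, the proteasome gene PAD1 and 6 hormone genes, DWF1 and hp2 among them, were not called, nor were the 4 genes of S-adenosylmethionine and amino acid metabolism, which include sam2 and cgs1. Of genes in no list, LOC606466 averaged -0.55 ± 0.27 as deposited (SD, n = 5; limma adjusted p = 0.00174) and -0.003 with the reversed arrays turned (limma adjusted p = 0.994), while LOC100037812, prp2 and mDrAp1 lay between -0.36 and -0.25.

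**Figure D2:**
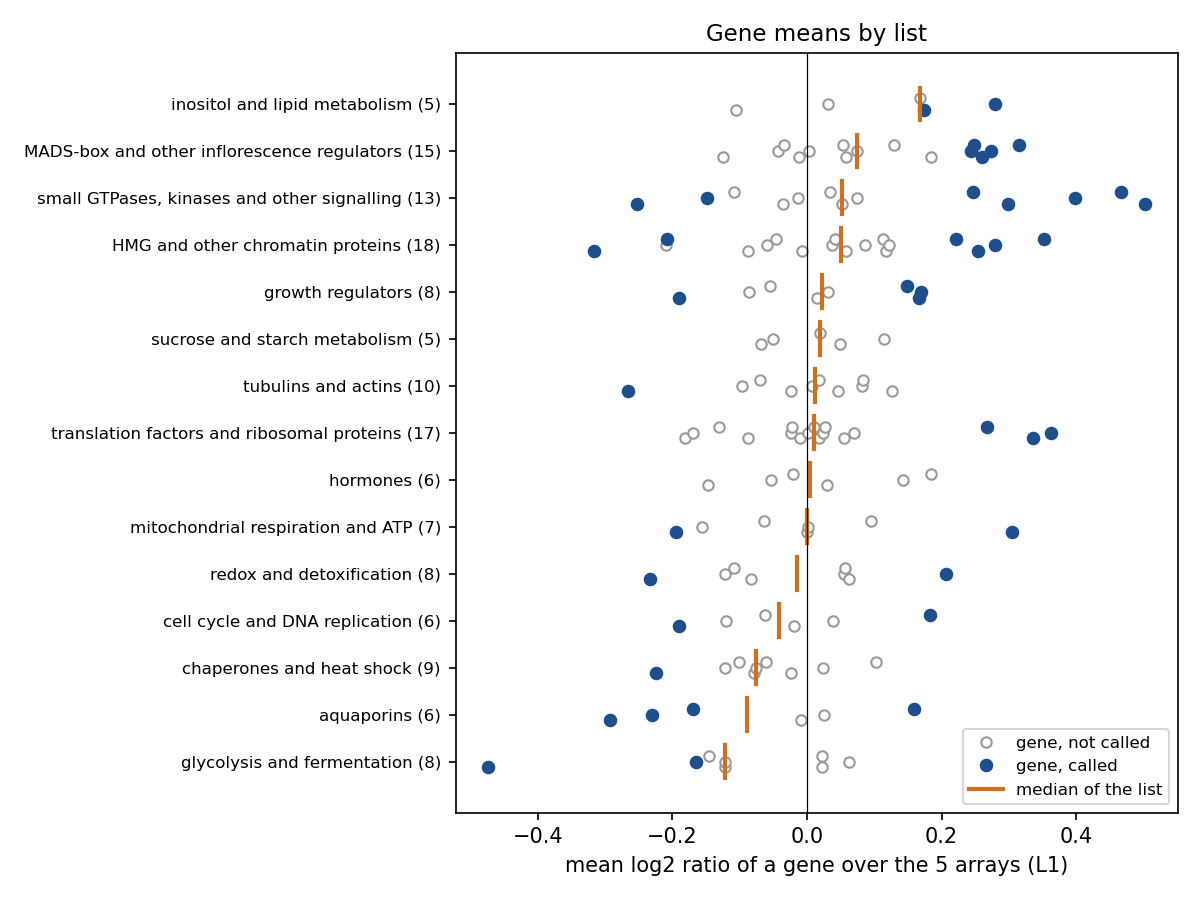
Gene means of L1 (x axis, log2) for lists with at least 5 genes, the number of genes in brackets, sorted by the list median (orange bar). Filled circles passed limma at adjusted p under 0.05 and open circles did not. The 5 called of 15 inflorescence regulators are all positive, between 0.24 and 0.31, and the 2 called of 8 glycolysis genes are negative.

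Values differed between the dye orientations. Over the 5357 clones, limma called 2976 (55.6%) on the forward arrays, 521 (9.73%) on the reversed arrays and 826 (15.4%) for the difference of both, 371 with a positive and 455 with a negative difference. With 3 forward and 2 reversed arrays the precision of the means differs, and the SD over clones was 0.291 for the forward mean and 0.201 for the reversed one. Among named genes the counts were 96 (45.1%) on forward arrays, 9 (4.23%) on reversed arrays and 22 (10.3%) for the difference, against 54.6%, 9.66% and 15.2% of all gene means and unnamed clones. Single arrays correlated across clones at 0.761 to 0.816 within the forward set, at 0.597 within the reversed pair and at 0.375 to 0.540 between orientations. These correlations are across clones of shared RNA pools and carry no p. With the arrays scaled to the same spread, the clones called for the difference numbered 70, 41 positive and 29 negative. Without array 4 or array 5 the reversed calls were 159 and 285, and without array 3, 4 or 5 the difference calls were 338, 133 and 221.

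Genes called on the reversed arrays were CAD2, CDPK2, LOC606466, PK, Pti1d, ZAG3, gpt, lox3 and rop5. The 8 other than CAD2 were also called on the forward arrays, with the same sign, against 45.1% of all named genes called there. Forward and reversed means were 0.28 and 0.32 for CDPK2, 0.49 and 0.44 for rop5, and -0.46 and -0.69 for LOC606466. Among these genes neither orientation was larger throughout, but they were picked by a call on the reversed arrays, which favours large reversed values. Of the 22 genes called for the difference, 21 were larger in size on the forward arrays, and 11 had opposite signs in the 2 orientations. Besides S6K, ZAG1, ald1, MFS18, PP2C, GOS2, fer1, hsp18f and tub3 these included me2, with 0.59 forward and 0.00 reversed (limma adjusted p = 0.00726), smh4, a single-myb-histone gene, with 0.45 and 0.02 (limma adjusted p = 0.0119), and hdt102, a plant-specific histone deacetylase, with 0.30 and -0.15 (limma adjusted p = 0.0106). Of the 2976 clones called on forward arrays, 2320 (78.0%) had the same sign on the reversed arrays, against 69.1% of all clones. Clones called in both orientations numbered 366, and 359 of them kept their sign. They made up 12.3% of the forward calls, against 9.73% of all clones called on the reversed arrays. Of the reversed calls they made up 70.3%, against 55.6% of all clones called on the forward arrays.

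**Figure D3:**
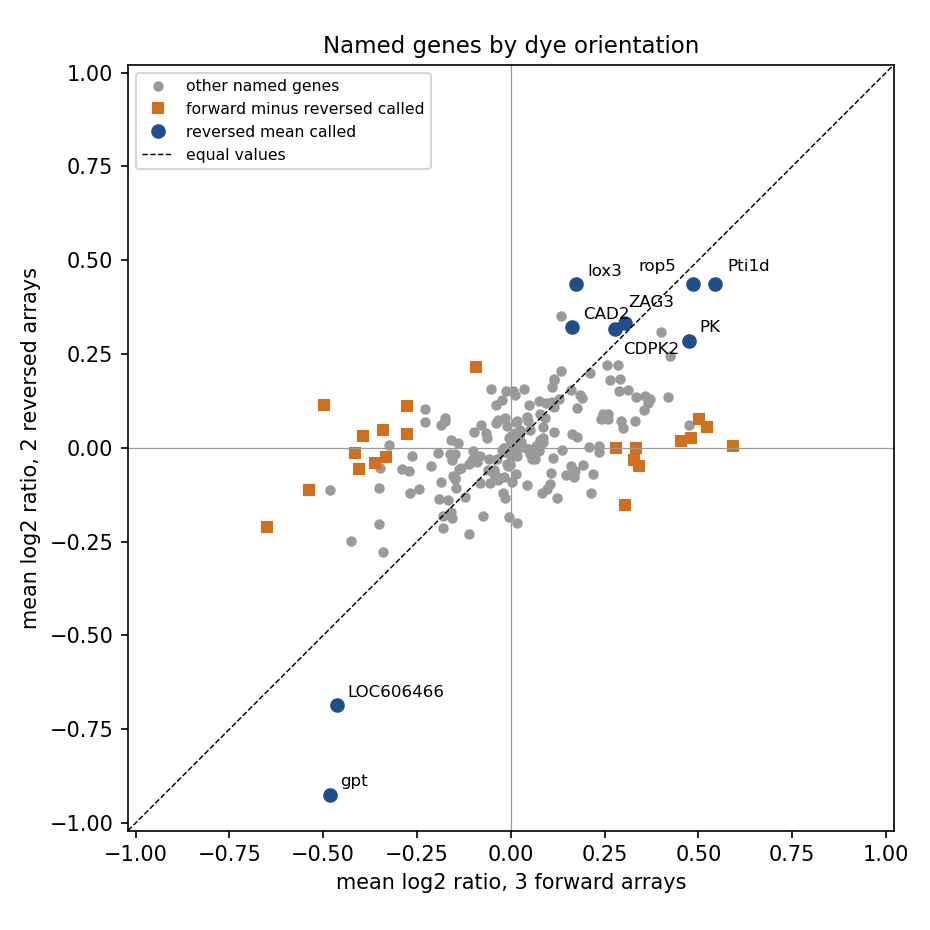
Mean log2 ratio of each of the 213 named genes on the 3 forward arrays (x axis) and the 2 reversed arrays (y axis). Blue circles are the 9 genes called on the reversed arrays, orange squares the 22 genes called for the difference, and the dashed line marks equal values. Most orange points lie near 0 on the reversed axis.

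The sizes of the ratios were not symmetric. Clone values of L1 ran from -1.56 to 0.65, with 119 clones below -0.5 and 16 above 0.5, and with 17 below -1 and 0 above 1. All 17 clones below -1 were called and negative on every array, and 2 of them had a called difference between orientations. Only 1 of the 17 carried a gene name, and it belonged to hsp70-5, of the HSP70 chaperones. It gave -1.36, -1.64 and -0.55 on the forward arrays and -0.58 and -1.11 on the reversed ones (L1 of -1.05 ± 0.48 SD, n = 5; limma adjusted p = 3.0e-05). Clones below -1 were about as many on the forward arrays alone, 19, as on the reversed arrays alone, 20, with 0 above 1 in both.

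Clones of the same gene often went different ways. A clone of sam2, an S-adenosylmethionine synthetase, lay at -0.98 ± 0.28 (SD, n = 5; limma adjusted p = 8.51e-07), while its 32 clones held 15 positive values and a gene mean of -0.07. A clone of the alpha-tubulin tua3 lay at -0.94 ± 0.36 (SD, n = 5; limma adjusted p = 3.0e-05), while 8 of its 16 clones were positive. The largest positive named clones were a pair from LOC542657, at 0.55 and 0.53, and its 7 clones reached down to -0.22. Of 110 genes with at least 2 clones, 31 had the same sign in every clone. Among 70 genes with at least 3 clones there were 8, namely PIP2-1, PP1, PDHE1-B, hsp18f, m4, mbd106, SRP2B and LOC542099, of which the first 6 were called. In 43 genes some clones were called positive and others negative, and this held for 16 of the 19 genes with 10 or more clones.

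The share of genes called was lower the more clones stood behind a gene mean, while the share of their clones called was not. Among all 5357 clones 41.7% were called. Of 103 genes with 1 clone 43 were called, of 40 with 2 clones 13, of 51 with 3 to 9 clones 8, and of 19 with 10 or more clones 1. Over the same classes 43 of 103, 32 of 80, 104 of 225 and 187 of 399 clones were called. The SD of the gene means was 0.217, 0.148, 0.105 and 0.063. INO1, for myo-inositol phosphate synthase, shows this with 19 clones from -0.70 to 0.44 and a gene mean of 0.03, as does csu503(met), with 21 clones from -0.49 to 0.40 and a mean of 0.00. A gene with 1 clone had no second clone to set beside its value, and this applies to ZAG3, Pti1d, rop5, PK, sdg110, ald1 and gpt.

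**Figure D4:**
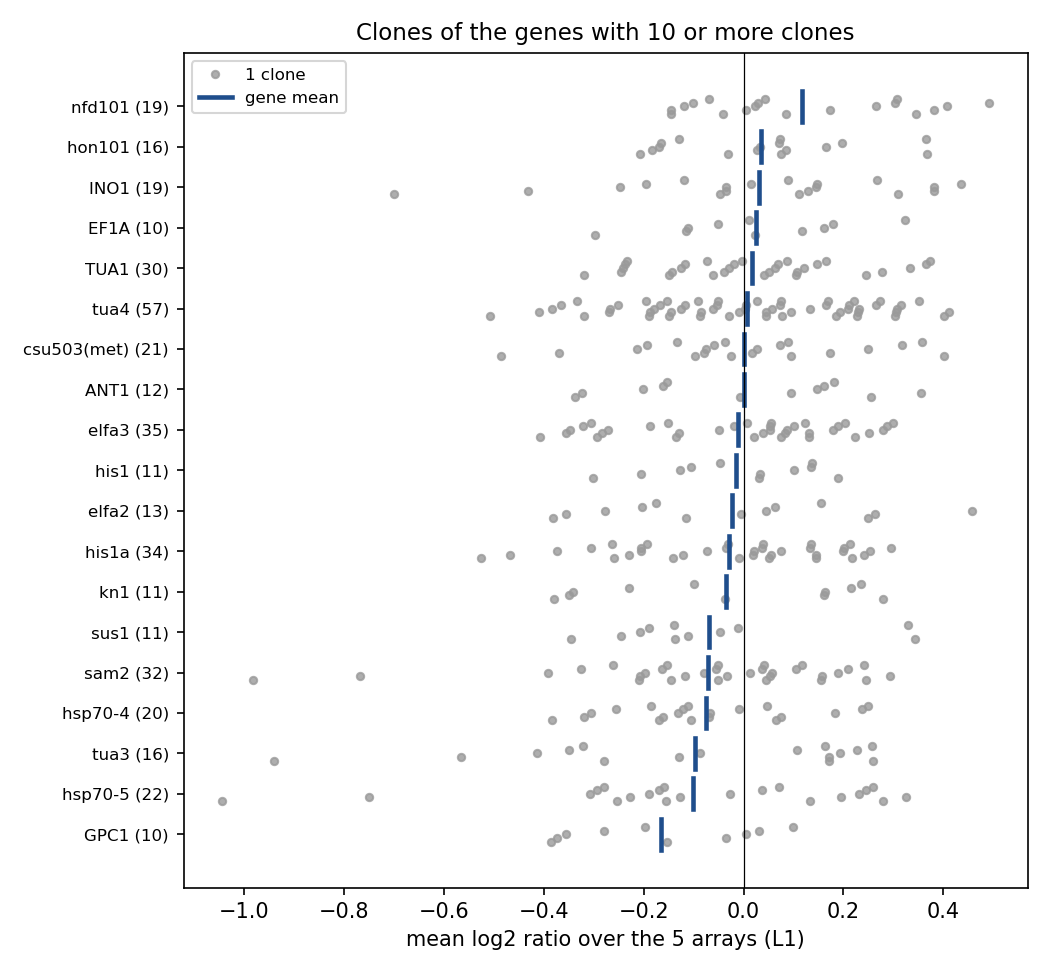
L1 of each clone (grey points, x axis in log2) of the 19 genes with 10 or more clones, whose number is in brackets, with the gene mean as a blue bar. Clones of every gene lie on both sides of 0, and the gene means lie between -0.16 and 0.12.

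L1 also moved with the place of a clone in the row order. Clones next to each other correlated at 0.302, those 3 apart at 0.211 and those 10 apart at 0.032. Clones 675 apart correlated at 0.323, and this is the length of 1 of 8 print blocks inferred from the row order. By windows of 25 positions, blocks together, the median L1 ran from -0.14 at positions 26 to 50 to 0.21 at positions 301 to 325. The windows smooth a larger pattern. For single positions the median over the blocks ran from -0.60 at position 52 to 0.40 at position 391. At positions 53 to 60 it lay between -0.47 and -0.30, a size like that of the largest gene means. The correlation of neighbours was similar on both orientations, 0.315 on forward arrays and 0.305 on reversed ones. With the local profile subtracted, 1834 clones and 51 named genes were called. Of the 36 called genes chosen for description 15 lost their call under it, namely prp2, mDrAp1, fer1, krp4, GPC1, GRF14, NIP3-1, PIS, cdc2, cat1, eIFiso-4E, m28, lox3, CDPK2 and GOS2. The means of prp2 and NIP3-1 also changed sign. GOS2 then stood at 0.16 (limma adjusted p = 0.152), fer1 at -0.08 (limma adjusted p = 0.196), cdc2 at 0.07 (limma adjusted p = 0.221) and CDPK2 at 0.05 (limma adjusted p = 0.566). The other 21 remained called, among them ZAG3 at 0.25, rop5 at 0.46, PIP2-1 at -0.32 and gpt at -0.73.

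**Figure D5:**
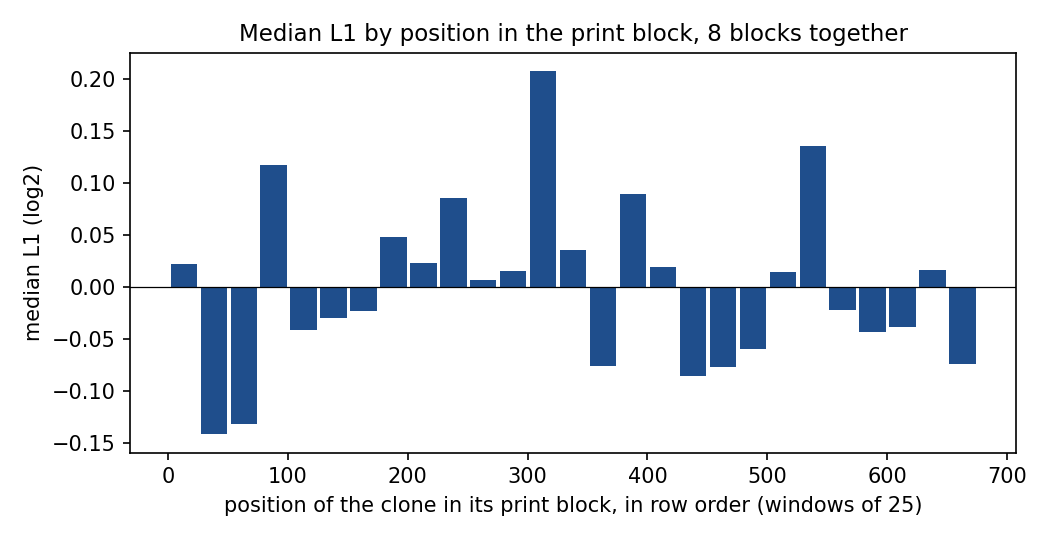
Median L1 (y axis, log2) of all clones in windows of 25 positions within a print block (x axis), with the 8 blocks inferred from the row order pooled. The bars range from -0.14 to 0.21, while medians of single positions range from -0.60 to 0.40.

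The B73 arrays differed from the H99 arrays in spread. The SD over clones averaged 0.277 ± 0.055 on the 5 B73 arrays and 0.180 ± 0.024 on the 5 H99 arrays (SD, n = 5 each; two-sided exact permutation p = 0.0159, with 0.00794 the smallest the design allows). The genes with large ratios against B73 had the following mean ratios against H99, from arrays that share the F1 pool. ZAG3 had 0.31 on the B73 arrays and -0.10 on the H99 arrays. For rop5 the values were 0.47 and -0.20, for PIP2-1 -0.29 and -0.03, and for GPC1 -0.16 and 0.23. For gpt they were -0.66 and -0.29 and for LOC606466 -0.55 and -0.44. These last genes had negative means against both inbreds. The differences between the inbreds were not tested here.

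Across the processing alternatives that kept the reversed arrays as deposited and used more than those arrays alone, 19 in number, 17 of the named genes remained called, 10 positive and 7 negative. The positive ones were MNB1b, an HMG-box protein that binds DNA, with PK, ZAG3, m4, me2, rop4, rop5, sdg110, smh4 and vdac1b. The negative ones were LOC100037812, LOC606466, MFS18, PIP2-1, ald1, gpt and nfd104. Of these 17, only PK, ZAG3, rop5, LOC606466 and gpt were also called on the reversed arrays alone. With the reversed arrays turned, 0 were called. On the reversed arrays me2 and smh4 averaged 0.00 and 0.02, and their difference between orientations was called. Leaving out single arrays ended 10 calls of the genes chosen for description without array 1, 9 without array 2, 13 without array 3, 6 without array 4 and 2 without array 5. The 13 were tub3, fer1, hsp18f, krp4, GPC1, GRF14, NIP3-1, GRF12, PIS, cdc2, cat1, m28 and lox3, and every gene lost without another array was among them. Scaling the arrays to the same spread ended the calls of 20 of the 36 genes, namely the same 13 together with CDPK2 and eIFiso-4E as well as GOS2, LON2, PP2C, Pti1d and rpp3.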

How the data were processed

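The genes, lists and tests were chosen with earlier results of these data known. The deposited values were log2 ratios, 1 per spot, normalized by the authors before deposit, as array medians within 0.001 of 0 show. Channel intensities were not analysed, and for the scanner and the normalization method the sources used here say nothing. Per the labels, the submitters tested the ratios against 0 in SAM 2.20.

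Missing spots stayed missing, and each 3 successive spots were averaged to a clone. The platform annotation, an old one, gave 1 gene name to 811 clones and none to 4589, and 208 of the 213 names had an entry in RefSeq (Zm-B73-REFERENCE-NAM-5.0, for names only). From their symbols alone 162 genes were placed by hand in 24 lists.

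The fit was made in limma 3.58.1 under R 4.3.3. It used all 10 arrays, with 1 mean for B73 and 1 for H99, so that the H99 arrays helped to estimate the spread; dye entered only in a further fit with a mean per inbred and orientation. Clones of a gene were averaged per array, unnamed clones kept their own row, and Benjamini-Hochberg adjustment ran over all 4763 rows, or over 5357 clones, with calls at 0.05. SDs are between arrays. The number of arrays limits the precision.

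Described were the 12 genes per sign with the largest called mean and the same sign on 5 arrays, genes with at least 10 clones, the 2 genes of lowest p per list, and per sign the 5 named clones of largest called L1. Other genes named were chosen after their values were seen. B73 and H99 arrays share replicate numbers, but deviations of same-numbered arrays correlated between -0.293 and 0.309, so the numbers did not pair them. Alternatives covered array sets, dye orientation, scaling, missing values, spot summaries, variance, print position and arrays left out. The print profile and the median over clones were added after the data were seen.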

Additional observations from a re-analysis of the deposited data

Results flagged for a closer look

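In 3 of 78 sets of 5 gene means tested, a single array stood apart by more than Dixon's 95% critical value of 0.71; chance gives such a gap in about 1 in 20 sets. GRF12, a growth-regulating factor, had 0.292 on array 3, against 0.115 to 0.153 on the other arrays. LOC606466 had -0.0717 on array 3, against -0.726 to -0.59 on the others, so that its mean of -0.55 included an array near 0. The linker histone hon101 had 0.109 on array 4, against 0.00471 to 0.0267 on the others.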

How the results depend on the processing

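With the reversed B73 arrays turned, 0 clones and 0 named genes were called by limma, with 1118 clones (20.9%) and 35 named genes at an unadjusted p under 0.05; the L1 of gpt became 0.08 and the L1 of lox3 became -0.070. On reversed arrays only, 521 clones and 9 genes were called, and the L1 of hsp18f was 0.030. Scaling the arrays to the same spread gave 1142 clones, 23 genes, 1536 forward calls, 870 reversed calls and 70 for the difference, and quantile normalization gave 1338, 33, 1810, 773 and 70. Unmoderated variances gave 89 reversed and 270 difference calls. The B73 arrays alone, without the H99 arrays in the estimate of the spread, gave 1867 clones, 48 named genes and 499 difference calls. The main fit gave 2235 clones and 65 named genes. Of the genes chosen for description, 6 lost their call on the B73 arrays alone and 1 gained a call. Among single spots 6001 of 16048 were called. Leaving out each array in turn gave 1399 to 2476 clones, 33 to 72 genes, 2356 to 2980 forward, 159 to 587 reversed and 133 to 720 difference calls. With neighbouring clones subtracted, the L1 of hp2 was -0.18 and the L1 of prp2 was 0.11; with the print profile subtracted, the L1 of prp2 was 0.052 and the L1 of NIP3-1 was -0.033. The cause of these moves was not tested, except that fewer arrays enter some fits. The other alternatives kept the counts of called clones and genes within 1.5 times. The replicate number as a random replicate block gave 2231 clones and 65 genes and changed no call of a described gene; same-numbered arrays correlated best with their own number only for number 4.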
